A study of Homo sapiens with 24 samples.

Results

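The CCR4-NOT complex removes poly(A) tails from cytoplasmic mRNAs, and shortening of the tail commonly precedes decapping and decay of the message or loss of its translation. CNOT1 is the large scaffold on which the other subunits assemble, CNOT2 and CNOT3 form the NOT module, CNOT9 is a docking platform for proteins that bring the complex to chosen mRNAs, and CNOT10 belongs to the module at the scaffold's N-terminal end. The poly(A) tail is removed by nucleases of a pair of families: CNOT6 and CNOT6L are paralogs of the EEP type, and CNOT7 and CNOT8 are paralogs of the DEDD type. CNOT4 is an E3 ubiquitin ligase that contacts the complex more loosely. The messages of these 10 genes are described here in total RNA, in polysomal RNA and in the ratio between them. The members are the rows of the deposited count table whose Ensembl identifiers carry these symbols in the Gencode annotation on hg19, and all 10 were found among the 20345 genes of the table.

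The cells were A2058, a human melanoma line, by the labels of all 24 libraries, so the data describe 1 line, although the study's text once names A375, another melanoma line, for the HU comparison. They received a scrambled control siRNA (siCTRL) or an siRNA against LSM14A (siLSM14A) at 20 nM, and were left untreated (NT) or exposed to 10 mM hydroxyurea for 2 h (HU), a drug that inhibits ribonucleotide reductase and stalls replication. LSM14A is an RGG-motif protein of processing bodies and the human counterpart of yeast Scd6. Poly(A)-selected total RNA and RNA from the heavy, polysomal end of a sucrose gradient were sequenced from 3 replicates of each of the 4 conditions, which gives 24 libraries. The comparisons ask whether loss of LSM14A or HU exposure went with a different amount of a message or a different level in polysomal relative to total RNA.

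The libraries hold 24789280 to 40645263 counts in total RNA and 28776634 to 44897501 in polysomal RNA. The siRNA target checked the labels: LSM14A was at 80.9 to 91.0 CPM in the 6 siCTRL libraries of total RNA and at 6.14 to 8.31 CPM in the 6 siLSM14A libraries (CPM, the count scaled to a common library size after TMM normalisation). Its log2 change was -3.49 (SE 0.07, edgeR adjusted p = 1.91e-09) without HU and -3.67 (SE 0.09, edgeR adjusted p = 8.41e-11) with HU. Among melanocyte lineage markers in total RNA, SOX10 (550 to 666 CPM), DCT, PMEL and S100B were high, whereas MLANA (5.48 to 10.2 CPM) and TYRP1 (3.92 to 5.48 CPM) were low, and PTPRC and EPCAM, markers of leukocytes and epithelium, had at most 10 and 3 counts in a library. Nothing in the labels says that replicates came from separate cultures, so p-values measure the spread between these samples. Libraries also differed in GC trend, the mean log2 deviation of genes in the upper quartile of exon GC content less that of genes in the lower quartile. It ran from -0.23 to 0.14 in total RNA and from -0.63 to 0.54 in polysomal RNA. The lowest polysomal values were those of siCTRL NT replicate 3 (-0.63), siLSM14A NT replicate 1 (-0.62) and siLSM14A HU replicate 3 (-0.47), and the highest those of siCTRL HU replicate 2 (0.54), siCTRL NT replicate 1 (0.32) and siLSM14A HU replicate 2 (0.31). This trend is given beside the results it moves with.

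3 of the 4 catalytic messages carry long 3' untranslated regions (UTRs). In the canonical Ensembl transcripts the 3' UTR measures 7044 bases in CNOT6L (chr4:78634541-78740769, minus strand), 5754 in CNOT7 and 4158 in CNOT6 (chr5:179921379-180005358, plus strand), but 1353 in CNOT8 (chr5:154237113-154256352, plus strand), while the median over 12841 tested genes is 1327. The scaffold gene CNOT1 (chr16:58553855-58663789, minus strand) has the longest coding sequence of the group, 7131 bases, and a 3' UTR of 1007. The NOT module genes are CNOT2 (chr12:70636782-70748773, plus strand), with a 3' UTR of 1078 bases, and CNOT3 (chr19:54641465-54659419, plus strand), with 274. CNOT9 (chr2:219433303-219461803, plus strand), CNOT10 (chr3:32726637-32815367, plus strand) and CNOT4 (chr7:135046547-135194893, minus strand) have 3' UTRs of 2804, 264 and 1090 bases. No exonic base of 9 of the members is shared with exons of another gene on the same strand, and 1.38% of those of CNOT10 are. Processed pseudogenes of CNOT4, CNOT6L and CNOT7 exist, so reads that match a gene and its copy equally well could be missing from the counts of these genes.

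PUM proteins bind the element TGTANATA in 3' UTRs and recruit CCR4-NOT, so the messages of the complex were searched for it, on the transcript strand. It occurs in 5 of the 10 members, against 30.5% of the 12680 tested genes with a 3' UTR of at least 50 bases. CNOT8 holds 4 copies, a number reached or passed in 1.66% of those genes; CNOT7 holds 2, CNOT1, CNOT2 and CNOT6L hold 1 each, and CNOT3, CNOT4, CNOT6, CNOT9 and CNOT10 hold none. The copies outside CNOT7 are shown because CNOT8 holds more of them than any other member, with 11 bases on each side and the element in capitals, read from GRCh37 (hg19) in the direction of the transcript.
CNOT8 copy 1: tgctctgaattTGTAAATAagtcttcccca
CNOT8 copy 2: aagtagtaaaaTGTATATAactcttacctg
CNOT8 copy 3: aggtaatgggtTGTAGATActgagtcttcc
CNOT8 copy 4: tttaagatgctTGTAAATActatttatgtt
CNOT1: ttttgaacttgTGTAAATAcatgaaagaga
CNOT2: atgtacgaatgTGTATATAttatatatatg
CNOT6L: gtgaattttgaTGTAAATAaaatatctttt
The windows of CNOT8 lie at chr5:154255188-154255217, chr5:154255315-154255344, chr5:154255460-154255489 and chr5:154256282-154256311, those of CNOT1 and CNOT2 at chr16:58554602-58554631 and chr12:70748422-70748451, and that of CNOT6L at chr4:78639671-78639700. All lie in exonic 3' UTR sequence. The AU-rich word TATTTAT, part of the sites read by proteins such as ZFP36 that also recruit the complex, occurs in CNOT3, CNOT6, CNOT6L, CNOT7 and CNOT8 (36.8% of the same 3' UTRs), and in CNOT8 it begins 1 base after the end of copy 4 of the PUM element. A match describes the letters of the transcript and not a bound site.

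Per kilobase of the longest coding transcript, the scaffold was the most abundant message of the complex and the EEP-type paralog CNOT6L the least. In total RNA of siCTRL NT, CNOT1 stood at 26.7 ± 1.6 CPM per kb (SD, n = 3), CNOT9 at 20.4 ± 0.12 and CNOT8 at 15.8 ± 0.80. CNOT10 followed at 15.2 ± 1.1, and its replicates overlapped those of CNOT8. CNOT2 (12.9 ± 0.47) and CNOT3 (12.5 ± 0.41), partners in the NOT module, overlapped each other as well. Below them came CNOT7 at 10.7 ± 0.17, CNOT6 at 7.98 ± 0.51, CNOT4 at 5.43 ± 0.62 and CNOT6L at 2.80 ± 0.080 CPM per kb, each below every replicate of the one before. Among the nucleases, CNOT8 was thus the highest per length and CNOT6L the lowest. In the other 3 conditions the order in total RNA was the same except that CNOT8 and CNOT10 or CNOT2 and CNOT3 changed places with each other. The length chosen matters for single members: per kb of the canonical transcript CNOT2 stood at 21.5 CPM per kb, next to CNOT1, because that transcript is 2844 bases against 4753 for the longest, and per kb of the union of exons it was at 4.37. CNOT1 was highest and CNOT6L lowest in total RNA under all 3 lengths.

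In polysomal RNA of siCTRL NT the top of the order was shared, with CNOT9 at 24.9 ± 2.6 and CNOT1 at 24.9 ± 5.2 CPM per kb (SD, n = 3). CNOT10 (16.998 ± 1.5), CNOT8 (16.49 ± 1.2) and CNOT3 (16.04 ± 3.6) overlapped in turn. The other catalytic subunits stood well below: CNOT7 was at 5.70 ± 0.22, CNOT6 at 3.70 ± 0.94 and CNOT6L at 1.85 ± 0.41 CPM per kb. This order also depended on the length: per kb of the canonical transcript CNOT3 stood at 24.8 ± 5.5 CPM per kb, level with CNOT1 and CNOT9, and it was first in siCTRL HU (27.1 ± 0.93) and in siLSM14A HU (26.5 ± 0.60), in the latter above every replicate of CNOT1.

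**Figure D1:**
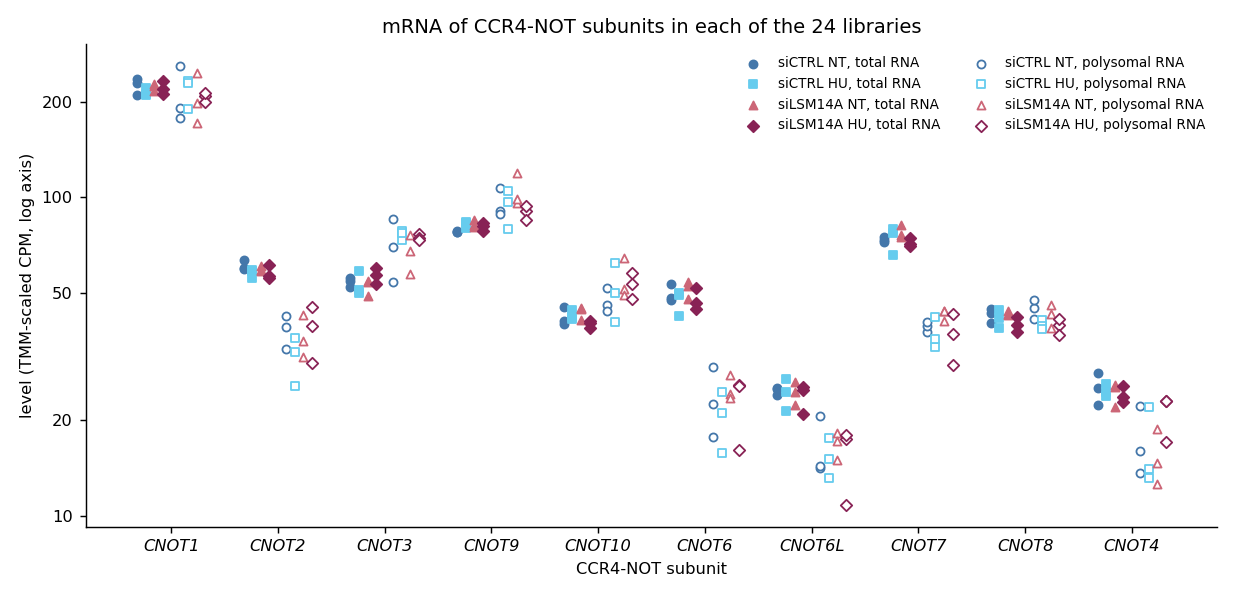
Level of each CCR4-NOT subunit in TMM-scaled CPM (vertical log axis) in all 24 libraries, with filled symbols for total RNA, open symbols for polysomal RNA, and 1 colour and shape per condition. Values of total RNA lie close together across the 4 conditions, while CNOT2, CNOT6, CNOT6L, CNOT7 and CNOT4 lie lower in polysomal RNA.

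Across the 12 libraries of total RNA the members varied little. CNOT9, the steadiest, ranged from 77.6 to 84.8 CPM (median 81.0), a 1.09-fold span, and CNOT1 from 209 to 235 CPM (median 220), a 1.13-fold span. The widest spans were those of CNOT6 (42.3 to 54.3 CPM, median 48.9) and CNOT6L (20.9 to 26.8 CPM, median 24.6), both 1.28-fold. Spans were larger in polysomal RNA, from 1.29-fold for CNOT8 (36.9 to 47.7 CPM, median 41.2) to 1.90-fold for CNOT6L (10.8 to 20.5 CPM, median 16.1). The lowest count of any member in any library was 295, for CNOT6L in polysomal RNA. In polysomal RNA the level of several members moved with the GC trend of the libraries: over the 12 libraries, the Pearson correlation of a member's log2 level with that trend was -0.90 for CNOT2, -0.85 for CNOT6, -0.78 for CNOT6L and -0.74 for CNOT4, which have GC-poor exons, and 0.69 for CNOT3, which has GC-rich exons. Over the 12 libraries of total RNA, where the trend spans less, it was 0.87 for CNOT3, -0.86 for CNOT7 and -0.68 for CNOT8. These points share library preparation and depth, and the values are descriptions. The 2 lowest levels of CNOT3 in polysomal RNA, 54.2 and 57.3 CPM against 67.8 to 85.3 CPM in the other 10, were in siCTRL NT replicate 3 and siLSM14A NT replicate 1, the libraries with the lowest GC trend. The lowest level of CNOT2, 25.6 CPM, was in siCTRL HU replicate 2, the library with the highest.

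The first question was whether loss of LSM14A changed the amount of any subunit message. No difference reached the threshold: without HU, 0 of 10 members passed in total RNA (edgeR quasi-likelihood test, adjusted p under 0.05), where 0.566% of 12544 genes did, and with HU 0 of 10 passed, where 0.802% of 12475 did. HU exposure gave the same count, 0 of 10, in siCTRL and in siLSM14A cells, and 0% of all genes passed in either, with 180 and 650 at an unadjusted p under 0.05 and with 1 and 0 called by DESeq2. Over these 40 tests the log2 change lay between -0.13 and 0.10 with an SE of 0.05 to 0.10, and the 95% intervals reached from -0.28 to 0.25. No member had an unadjusted p under 0.05 in edgeR, and none passed in DESeq2. With no difference and evenly spread p-values, a share of 0.05 of the genes tested would have an unadjusted p under 0.05. Except for the 650, the counts over all genes at that p, here and below, lie under this share. Those counts are therefore not a sign of change, and few small p-values among the members are weak evidence of stability. In bulk libraries a change in the cells present and a change in RNA per cell cannot be told apart.

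The scaffold CNOT1 is given first. In total RNA it stood at 229, 209 and 235 CPM in siCTRL NT, 210, 211 and 220 in siCTRL HU, 224, 215 and 228 in siLSM14A NT and 220, 211 and 232 in siLSM14A HU. The 4 groups overlapped. For CNOT7, the DEDD-type nuclease with the higher read count, the values were 72.5, 74.9 and 73.7 CPM in siCTRL NT, 65.96, 77.01 and 79.46 in siCTRL HU, 76.09, 74.97 and 82.16 in siLSM14A NT and 70.2, 71.2 and 74.6 in siLSM14A HU. Its siLSM14A NT libraries lay just above those of siCTRL NT and above those of siLSM14A HU, without passing the test. Its highest value, 82.16 CPM, was in siLSM14A NT replicate 3, the library of total RNA with the lowest GC trend (-0.23), and the part of the trend in these gaps was not tested. CNOT9 likewise stood at 81.9, 80.9 and 84.8 CPM in siLSM14A NT against 77.6, 78.5 and 77.7 in siCTRL NT, a log2 difference of 0.08 (SE 0.05, edgeR adjusted p = 0.60). For CNOT10 the values were 40.8, 40.3 and 39.0 CPM in siLSM14A HU against 41.3, 45.1 and 44.5 in siLSM14A NT, a log2 change of -0.13 (SE 0.06, edgeR adjusted p = 0.85). Groups that did not overlap were found for 2 of 10 members in siLSM14A NT against siCTRL NT (CNOT7 and CNOT9; 17.1% of all 12855 genes), for 1 in siLSM14A HU against siCTRL HU (CNOT10; 14.7%), for 2 in siCTRL HU against siCTRL NT (CNOT2 and CNOT9; 5.45%) and for 3 in siLSM14A HU against siLSM14A NT (CNOT7, CNOT8 and CNOT10; 11.8%).

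In polysomal RNA the members were noisier and again none passed. The counts were 0 of 10 for siLSM14A against siCTRL without HU (0.0162% of 12342 genes passed), 0 of 10 with HU (0.0653% of 12256 genes), and 0 of 10 for HU against NT in both siRNA groups (0% of genes, 259 in siCTRL and 107 in siLSM14A at an unadjusted p under 0.05, 0 called by DESeq2). Changes lay between -0.28 and 0.46 on the log2 scale with an SE of 0.13 to 0.24, so that the 95% intervals reached from -0.70 to 0.93. No member had an unadjusted p under 0.05 in edgeR, and 1 did in DESeq2, CNOT4 in siLSM14A HU against siLSM14A NT (log2 0.45, unadjusted p = 0.039), with 0 passing after adjustment. Groups did not overlap for CNOT7 in siLSM14A NT against siCTRL NT (higher, 6.63% of all genes), for CNOT8 in siCTRL HU against siCTRL NT (lower, 7.54%), for CNOT9 in siLSM14A HU against siLSM14A NT (lower, 5.86%) and for no member in siLSM14A HU against siCTRL HU (9.54%). For CNOT8 the polysomal values were 41.4, 44.9 and 47.7 CPM in siCTRL NT and 41.1, 39.3 and 38.5 CPM in siCTRL HU, a narrow gap between 41.4 and 41.1.

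The ratio of polysomal to total RNA was tested as the interaction term between fraction and condition. It addresses whether the relative level of a message in heavy polysomal RNA changed beyond its change in total RNA. The count was 0 of 10 in each of the 4 comparisons, with 0% of the 12649 to 12757 genes passing, so this test called no gene at all for the ratio. At an unadjusted p under 0.05 there were 111 to 487 genes, and DESeq2 called 0. The study used another tool, Xtail, and reported many mRNAs as regulated in translation, LIG4 and RTEL1 among them. The 0 therefore belongs to the tests used here and does not show that no message changed. The differences of the members ran from -0.21 to 0.47 on the log2 scale (SE 0.13 to 0.28), with 95% intervals from -0.68 to 0.96, none had an unadjusted p under 0.05 in edgeR or DESeq2, and none passed in DESeq2. Same-numbered libraries gave groups that did not overlap for CNOT9 in siLSM14A HU against siLSM14A NT (lower, 5.84% of all genes) and for no member in the other 3 (3.49%, 10.7% and 7.37%). The interactions of HU with siRNA, fitted in total RNA, polysomal RNA and the ratio, also called 0 of 10 members and 0% of all genes, with 134 to 367 genes at an unadjusted p under 0.05 and 0 called by DESeq2.

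**Figure D2:**
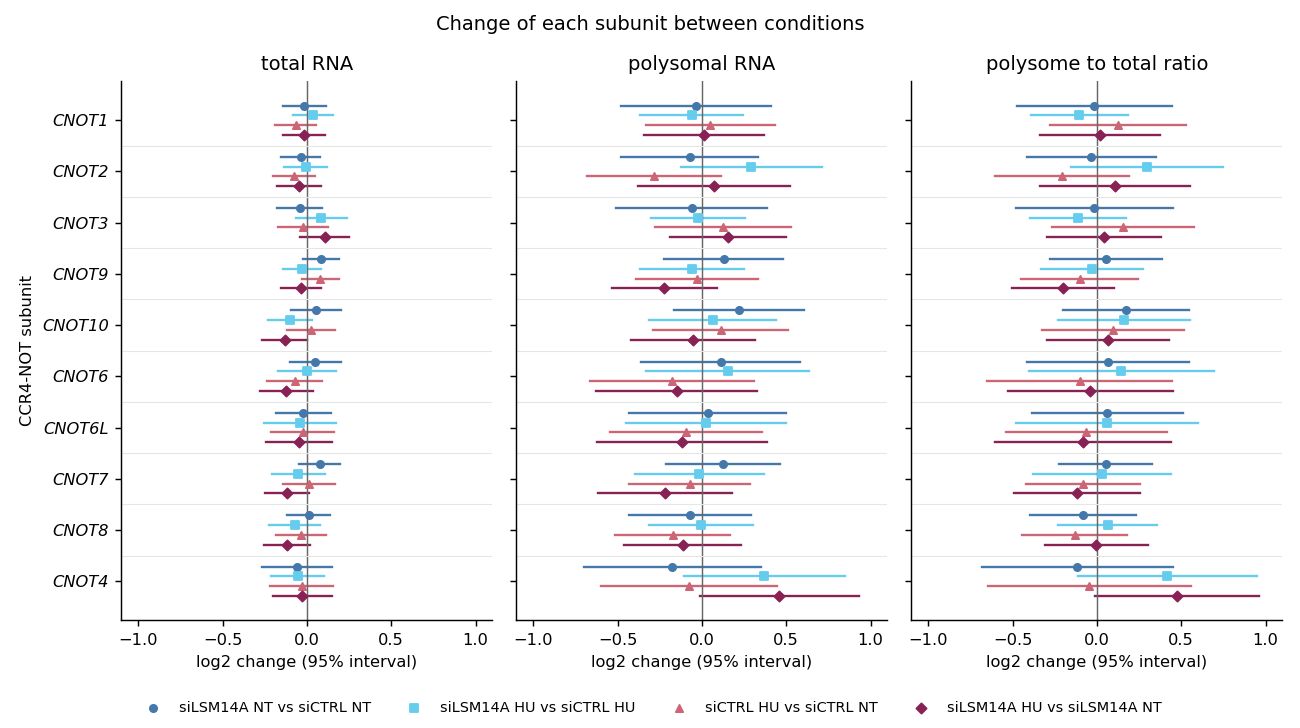
Log2 change of each subunit (points) with its 95% interval (bars) in total RNA, polysomal RNA and the ratio of polysomal to total RNA, in 4 colours for the 4 comparisons of conditions. All 120 intervals include 0, and those of total RNA are the narrowest.

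Before correction for exon GC content, the ubiquitin ligase CNOT4 had the largest changes in polysomal RNA and the ratio, all below the threshold. Its polysomal level was 22.94, 17.005 and 22.97 CPM in siLSM14A HU, against 18.7, 14.7 and 12.6 in siLSM14A NT, 14.1, 13.1 and 21.9 in siCTRL HU and 13.61, 16.01 and 22.09 in siCTRL NT. The highest siCTRL libraries reached the level of siLSM14A HU, and both were replicate 3. The GC trend was lowest in siCTRL NT replicate 3, siLSM14A NT replicate 1 and siLSM14A HU replicate 3, which had CNOT4 at 22.09, 18.7 and 22.97 CPM, and highest in siCTRL HU replicate 2, which had it at 13.1 CPM. In total RNA CNOT4 stayed between 22.02 and 28.08 CPM. The log2 ratio of polysomal to total RNA was 0.0092, -0.58 and -0.039 in siLSM14A HU and -0.46, -0.79 and -0.81 in siLSM14A NT. The test of this difference gave 0.47 (SE 0.23, 95% interval -0.011 to 0.96, edgeR adjusted p = 1.00), and against siCTRL HU it gave 0.42 (SE 0.25, edgeR adjusted p = 0.78). After correction for exon GC content the first difference was 0.42 (95% interval 0.061 to 0.78, an unadjusted p under 0.05, edgeR adjusted p = 0.95) and the second 0.26 (95% interval -0.17 to 0.68, edgeR adjusted p = 1.00). Leaving out siCTRL HU replicate 3, the library with the high control level, moved the uncorrected value against siCTRL HU to 0.72 with an adjusted p of 0.35. That replicate was picked for its level, and the values of the other fits that leave out a replicate are not listed here. None of these fits called a member. The interaction of HU and siRNA on the ratio of CNOT4 was 0.52 (SE 0.37, edgeR adjusted p = 0.90). CNOT2 came next, with a ratio difference of 0.30 (SE 0.21) in siLSM14A HU against siCTRL HU (edgeR adjusted p = 0.78), which was 0.025 after correction for exon GC content. On the corrected scale CNOT7 was at -0.26 in this comparison (95% interval -0.52 to 0.0027), as far from 0 as CNOT4.

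Within a condition the subunits differed in how they were divided between total and polysomal RNA, as most genes did. Over all 4 conditions 8 of 10 members passed the test of polysomal against total RNA, 3 higher and 5 lower, where 84.4% of 12855 genes passed, 40.2% higher and 44.2% lower. A count of 8 of 10 is therefore near that of genes at large, and the members' median log2 ratio was -0.29 against -0.058 for all genes. Both fractions were scaled to their own library totals, so a ratio places a message relative to the other messages of the fraction and gives no share of molecules on polysomes.

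Of the scaffold and the non-catalytic modules, CNOT1 lay near 0, with log2 ratios from -0.33 to 0.14 (median -0.10) over the 12 pairs of same-numbered libraries and a fitted value of -0.07 (SE 0.06, 95% interval -0.20 to 0.06, edgeR adjusted p = 0.28). The NOT module partners went opposite ways. CNOT2 was lower in polysomal RNA in 12 of 12 pairs, from -1.12 to -0.43 (median -0.74), with a fitted log2 value of -0.71 (SE 0.07, edgeR adjusted p = 2.50e-09). CNOT3 was higher in 12 of 12, from 0.055 to 0.65 (median 0.40), with a fitted value of 0.41 (SE 0.06, edgeR adjusted p = 2.76e-06). CNOT9 and CNOT10 were each higher in 11 of 12 pairs, with fitted values of 0.24 (SE 0.05, edgeR adjusted p = 0.00016) and 0.29 (SE 0.06, edgeR adjusted p = 0.00023).

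Among the nucleases, CNOT6 had the lowest ratio of the complex. It ran from -1.67 to -0.79 over the 12 pairs (median -1.03), and the fitted log2 value was -1.11 (SE 0.09, edgeR adjusted p = 9.17e-11), so that its polysomal level was 0.462 of its total RNA level on the CPM scale. In siCTRL NT its 3 values were 48.3, 47.7 and 53.6 CPM in total RNA and 17.7, 22.4 and 29.3 in polysomal RNA, without overlap. CNOT7 (chr8:17082475-17104387, minus strand, fitted -0.93, SE 0.06, edgeR adjusted p = 1.01e-12) and CNOT6L (fitted -0.61, SE 0.08, edgeR adjusted p = 6.63e-07) were also lower in 12 of 12 pairs. CNOT8, the paralog of CNOT7, lay near 0, with 6 pairs on each side of 0 and a fitted value of -0.011 (SE 0.05, 95% interval -0.11 to 0.08, edgeR adjusted p = 0.82). CNOT4 was lower in 11 of 12 pairs (fitted -0.50, SE 0.09, edgeR adjusted p = 3.44e-05). The distribution over all genes places these values: CNOT6 stood at percentile 11.4 of the ratio among 12855 genes, CNOT7 at 16.4, CNOT8 at 51.8 and CNOT3 at 67.9.

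**Figure D3:**
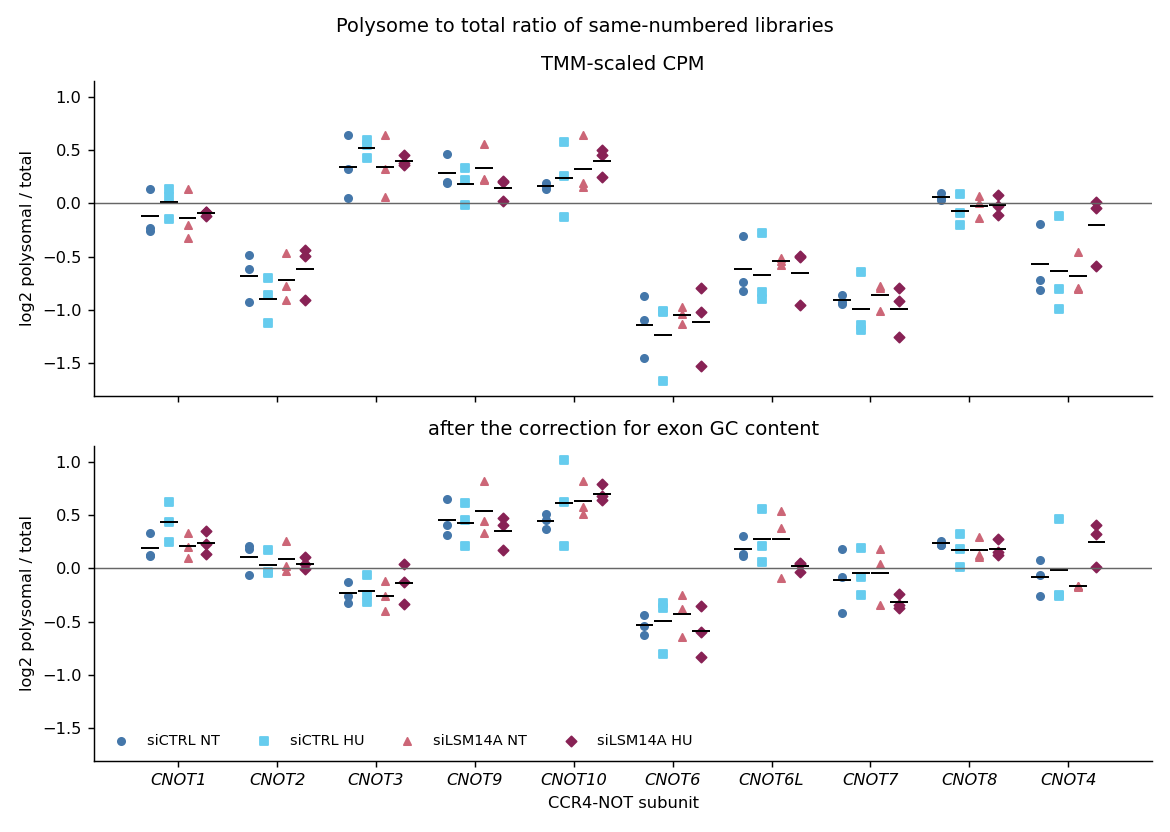
Log2 ratio of polysomal to total RNA for each pair of same-numbered libraries, by subunit and condition (3 points each; the bar is their mean), from TMM-scaled CPM above and after correction for exon GC content below. CNOT6 lies below 0 in 12 of 12 pairs in both, CNOT9 and CNOT10 lie above it in at least 11 of 12, and CNOT3 and CNOT6L change side.

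Within single conditions, with 3 libraries a fraction, 6 to 8 of the 10 members passed. In siCTRL NT 1 was higher (CNOT9) and 5 lower (63.8% of all genes passed, 31.4% higher and 32.3% lower), and in siCTRL HU 1 was higher (CNOT3) and 5 lower (73.5%, 36.2% and 37.4%). In siLSM14A NT 3 were higher (CNOT3, CNOT9 and CNOT10) and 5 lower (64.4%, 32.1% and 32.3%), and in siLSM14A HU 2 were higher (CNOT3 and CNOT10) and 4 lower (66.8%, 32.8% and 34.1%). CNOT2, CNOT6, CNOT6L and CNOT7 were lower in all 4 conditions. After correction for exon GC content CNOT6 alone of them was called lower in all 4 (-0.41 to -0.57), CNOT7 in siLSM14A HU (-0.31), and CNOT2 and CNOT6L in none. CNOT4 was lower in 3 and missed the threshold in siLSM14A HU, at -0.19 (SE 0.14, edgeR adjusted p = 0.25). That this differs from the other conditions was not shown, as above. After correction for exon GC content CNOT4 was called lower in none, and it was called higher in siLSM14A HU (0.26, edgeR adjusted p = 0.044). Without siLSM14A HU replicate 1 the counts in that condition were 0 and 2, without siCTRL NT replicate 1 or 2 they were 0 and 3 there, and without siCTRL HU replicate 3 they were 3 and 5. In siLSM14A NT they were 0 and 4 without replicate 2 and 0 and 3 without replicate 3. Calls over all genes moved as well when 1 replicate was left out. They numbered 3654 to 8454 in siCTRL NT (7927 with all replicates) and 7822 to 9036 in siCTRL HU (9174). In siLSM14A NT they numbered 5103 to 8331 (8067), and in siLSM14A HU 5700 to 7823 (8272). The member counts of these fits are therefore not read as a property of the subunits. Over all conditions the counts of 3 and 5 held without each of the 12 same-numbered pairs in turn, those with the lowest and highest GC trends included.

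The ratio followed base composition. Across 12855 genes its Spearman correlation with the GC content of the exons was 0.67, and with the length of the 3' UTR it was -0.39 (12841 genes); across the 10 members the values were 0.84 and -0.66. Genes share libraries and are not independent replicates, so these are descriptions. Exon GC content was 36.8% in CNOT6L, 36.8% in CNOT7 and 37.01% in CNOT2, at percentiles 4.08, 4.08 and 4.62 of tested genes, 39.5% in CNOT6, and 57.2% in CNOT3, at percentile 78.6. The lowest ratios were thus those of the GC-poor members and the highest that of the GC-rich one. Polysomal libraries also differed among themselves in GC trend, and what part of the ratio this carries was not tested.

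**Figure D4:**
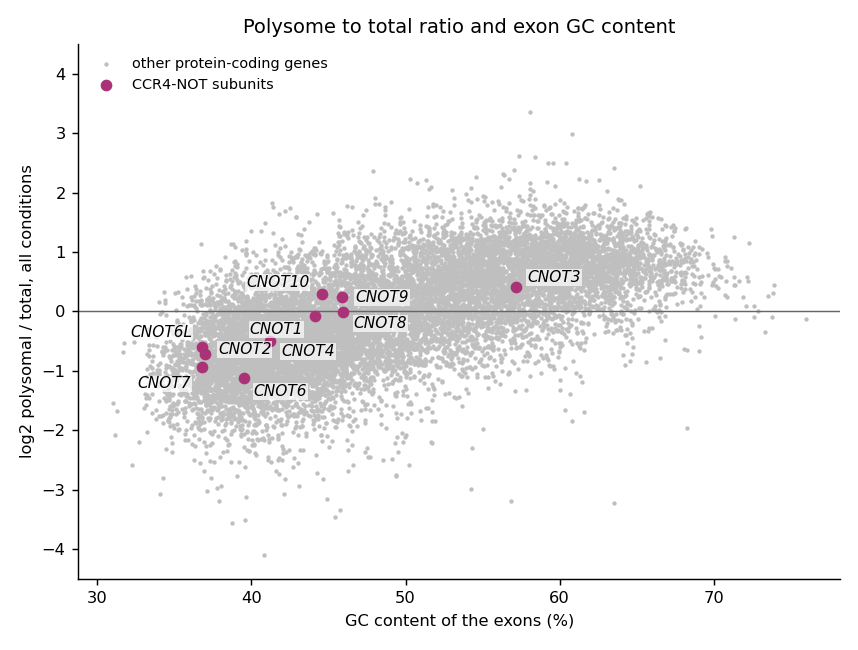
Log2 ratio of polysomal to total RNA over all conditions (vertical) against exon GC content in percent (horizontal) for 12855 protein-coding genes, with the 10 subunits in purple. The subunits run with the cloud from CNOT6, CNOT7, CNOT2 and CNOT6L at the lower left to CNOT3 at the right.

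When each library's levels were first corrected for exon GC content, which sets every gene against genes of like GC, 3 members kept their direction and call. CNOT6 stayed lower, at -0.51 on the log2 scale and in 12 of 12 pairs, and CNOT9 (0.45) and CNOT10 (0.61) stayed higher, also in 12 of 12. CNOT3 turned from higher to lower (-0.21, edgeR adjusted p = 0.00032) and CNOT6L from lower to higher (0.19, edgeR adjusted p = 0.0040). CNOT2 (0.072), CNOT4 (0.0018) and CNOT7 (-0.12, edgeR adjusted p = 0.063) no longer passed, while CNOT1 (0.27) and CNOT8 (0.19) now did. The counts over all conditions became 5 higher and 2 lower, where 78.3% of all genes passed under the same correction, 35.9% higher and 42.5% lower. The direction for CNOT1, CNOT2, CNOT3, CNOT4, CNOT6L and CNOT8 therefore holds on 1 scale only.

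The paralog pairs allow a comparison inside each library, free of scaling between libraries. There were 2.02 reads of CNOT6 for each read of CNOT6L in total RNA (median of 12 libraries, 1.80 to 2.36) and 1.45 in polysomal RNA (1.19 to 1.62), without overlap. For CNOT7 against CNOT8 the ratio of counts was 1.78 (1.66 to 1.87) in total RNA and 0.922 (0.808 to 1.13) in polysomal RNA, so the DEDD-type paralog with more reads in total RNA was CNOT7, while in polysomal RNA the counts of the pair were close. The ratios differed between fractions by -0.51 and -0.92 on the log2 scale, in the same direction in all 4 conditions. After correction for exon GC content the differences were -0.70 for CNOT6 to CNOT6L and -0.32 for CNOT7 to CNOT8, again in the same direction in all 4 conditions. The pairs were compared after their values had been seen, so these are descriptions without a test. Counts of paralogs of different length are not compared as levels here.

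**Figure D5:**
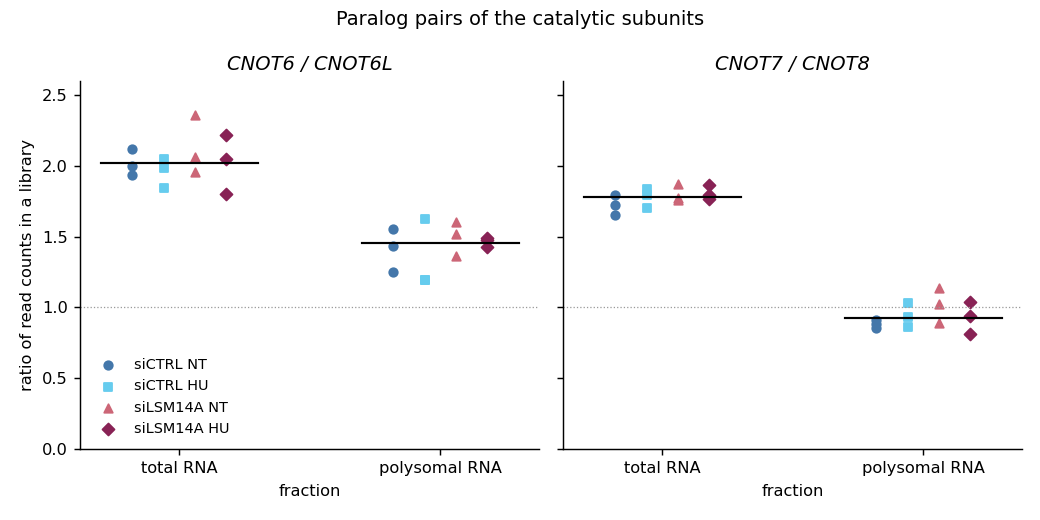
Ratio of read counts within each library for CNOT6 to CNOT6L and CNOT7 to CNOT8 (vertical axis from 0), in total and polysomal RNA, with 1 symbol per condition and a bar at the median of 12 libraries. Every polysomal library lies below every library of total RNA in both pairs.

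The genes whose levels ran most like CNOT1, over 24 libraries with each fraction centred on its mean, were TRIP12 (Pearson r = 0.89), MSH6 (0.89), KIF1B (0.88), ARFGEF1 (0.87) and SIN3A (0.87), out of 8993 genes with a mean of at least 10 CPM. The other members were far from them. The highest was CNOT4 at 0.41, level with CNOT6L at 0.41, and the lowest were CNOT9 at -0.44 and CNOT3 at -0.53. Among pairs of members, CNOT6 and CNOT6L had the highest correlation, 0.85 over the 12 libraries of polysomal RNA. Their levels there had correlations of -0.85 and -0.78 with the GC trend. The lowest was that of CNOT3 and CNOT7, -0.87 over the 12 of total RNA. In total RNA the levels of CNOT3 and CNOT7 had correlations of 0.87 and -0.86 with the GC trend.

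The wider set of 30 deadenylation genes, which holds the PAN2-PAN3 nuclease, other poly(A) nucleases, poly(A)-binding proteins, BTG/TOB adaptors and RNA-binding proteins that recruit CCR4-NOT, gave 0 called genes in each comparison of conditions by edgeR, with 0 to 7 at an unadjusted p under 0.05, and DESeq2 called 1 of them once (TNRC6C in total RNA of siLSM14A HU against siCTRL HU, adjusted p = 0.048). In total RNA of siLSM14A HU against siCTRL HU, libraries of like number shared deviations from their group means, and a block on that number let 6 of the 30 pass, 4 higher and 2 lower, where 6.85% of 12475 genes passed with that block. TNRC6C, a GW182 protein of microRNA silencing that binds CCR4-NOT, stood at 21.1, 20.7 and 21.7 CPM in siLSM14A HU and 17.5, 17.2 and 16.3 in siCTRL HU, a log2 change of 0.31 (edgeR adjusted p = 0.085 without the block and 0.00070 with it). PABPC4, a cytoplasmic poly(A)-binding protein, stood at 133, 122 and 120 CPM against 159, 145 and 135, a change of -0.23 (adjusted p = 0.22 and 8.0e-05). TOB1, an adaptor that links poly(A)-binding protein to the CNOT7 and CNOT8 nucleases, stood at 53.0, 57.3 and 49.6 CPM against 65.8, 60.8 and 59.4, a change of -0.22 (adjusted p = 0.25 and 0.00079). The groups of these genes did not overlap, which held for 14.7% of all 12855 genes in this comparison. They were named for the smallest p-values, so the gaps between their groups are no separate support. The block called 0 of the 10 subunits in the same comparison. Between fractions over all conditions 6 of the 30 were higher and 17 lower in polysomal RNA, where 40.2% and 44.2% of all genes were, and 9 and 15 after correction for exon GC content (35.9% and 42.5%); CNOT11, the partner of CNOT10 in the N-terminal module, was at 0.15 (SE 0.05, edgeR adjusted p = 0.010).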

How the data were processed

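Raw counts per gene were used as the authors deposited them: stranded, paired-end poly(A)+ libraries had been trimmed with TrimGalore, aligned to hg19 with STAR 2.6.1a and counted per Gencode gene by STAR. Gene names, lengths, GC content and 3' UTRs were taken from Gencode v44lift37 on GRCh37, and 19637 of 20345 identifiers matched. Tests used edgeR 4.0.16 (quasi-likelihood F-test, TMM, filterByExpr with a minimum count of 10) on protein-coding genes, with Benjamini-Hochberg adjustment over all genes tested and a threshold of 0.05; the ratio was the interaction of fraction and condition. The study's ratio tool, Xtail, was not used here. Alternatives were DESeq2 1.42.0, RLE scaling, no filter, all gene identifiers, the replicate number as a block, a loess correction for exon GC content (span 0.3), 1 fit of 24 libraries, and leaving out each replicate. Same-numbered libraries deviated together (all 3 correlations over 0.1) in total RNA of both HU groups, between siCTRL NT and siCTRL HU within each fraction, and between the siLSM14A HU fractions. Between the fractions of the other conditions the lowest correlation was 0.058 in siCTRL NT, 0.058 in siCTRL HU and -0.31 in siLSM14A NT. Pairs of fractions in these conditions therefore rest on the number alone. No replicate pair agreed within sampling noise. On simulated 2-fold changes 93.5% were recovered for total RNA, siLSM14A HU against siCTRL HU (12422 genes), and 65.8% for the ratio (12534 genes). There were 18 and 11 false calls. The simulated log2 change of 1 was larger than any fitted for a member between conditions, at most 0.47 for the ratio. Recovery of changes of the members' size was not tested. Counts were drawn independently for each library, without a GC trend or shared deviations of same-numbered libraries. Subunits were named in order of role, and genes of the wider set where they passed a test between conditions, at most 3 a comparison. The members and lists were chosen with earlier results of these data known; the paralog comparison was added after values were seen.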

Additional observations from a re-analysis of the deposited data

How the results depend on the processing

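Between conditions no subunit passed in total RNA, polysomal RNA, the ratio or an interaction under any alternative run: 0 of 2320 fits of 150 member and comparison pairs, of which 251 had the opposite sign to the reported value. These fits reuse the same libraries, and few genes of any kind passed. In the main fits at most 0.802% of all genes did, and 0% for HU against NT, the ratio and the interactions. With the replicate block, 6.85% passed in total RNA of siLSM14A HU against siCTRL HU. The 0 is therefore near the count for genes at large. For polysomal against total RNA over all conditions, GC correction moved the members called higher and lower to 5 and 2, with or without the replicate block. Within conditions, GC correction gave 2 and 2 in siCTRL NT, 3 and 1 in siCTRL HU, 4 and 2 in siLSM14A HU. In siLSM14A NT it gave 2 higher (CNOT9 and CNOT10) and 1 lower (CNOT6). The replicate block with GC correction gave 2 and 2 in siCTRL NT and 3 and 1 in siCTRL HU. It gave 2 lower in siLSM14A HU and 1 lower in siLSM14A NT, where its higher calls are not listed here. The replicate block alone gave 0 higher in siCTRL NT and siLSM14A NT; in siCTRL NT no filter gave 0 higher and 1 fit of 24 libraries 2. It changed no other call of a subunit. Leaving out 1 replicate gave 0 to 2 higher and 3 to 5 lower in siCTRL NT, 1 to 3 and 4 to 5 in siCTRL HU, 0 to 2 and 3 to 5 in siLSM14A NT, and 0 to 2 and 2 to 4 in siLSM14A HU. The calls over all genes moved in these fits too, as given above. Shares over all genes within single conditions under GC correction or the block are not listed here, so those member counts are descriptions.

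With GC correction the log2 ratio over all conditions changed sign for CNOT1 (0.27), CNOT2 (0.072), CNOT3 (-0.21), CNOT4 (0.0018), CNOT6L (0.19) and CNOT8 (0.19). With the replicate block and GC correction the values were 0.27, 0.071, -0.21, 0.0029, 0.19 and 0.19. The correction by its construction removes any difference between fractions that follows GC content, and the cause of that difference was not tested.

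Counts over all genes moved by more than 1.5 times in several comparisons of siLSM14A with siCTRL. In total RNA without HU, 71 genes became 189 with DESeq2, 119 with GC correction, 45 with the replicate block, 13 in 1 fit of 24 libraries and 28 to 80 when a replicate was left out. With HU, 100 became 188, 159, 855, 17 and 46 to 101, and 647 with the replicate block and GC correction. In polysomal RNA without HU, 2 became 8 with DESeq2, 5 with GC correction, 4 with no filter and 27 in 1 fit; with HU, 8 became 22 with DESeq2, 40 with the replicate block, 17 with the block and GC correction, 29 in 1 fit and 2 to 8 with a replicate left out. For HU against NT in siCTRL total RNA, 0 became 15 with the replicate block and 26 with the block and GC correction. For the ratio in siLSM14A HU against siLSM14A NT, 0 became 16 without siLSM14A NT replicate 1. For polysomal against total RNA, 7927 became 3654 without siCTRL NT replicate 2, and 8067 became 5103 without siLSM14A NT replicate 3. Counts of 295 or more per member and library leave the spread between replicates as the main limit on precision in polysomal RNA, where it was larger. In total RNA this did not hold for every member and group. CNOT9 in siCTRL NT had an SD of 0.46 on a mean of 77.95 CPM at counts of 2168 to 3147, a spread within counting error.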
